A study of Oryza sativa Japonica Group with 4 samples.

Results

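The 9 genes described here encode enzymes that make gibberellins, and they were taken by their RAP identifiers from a table of read counts for 37862 rice genes. Early steps were represented by 4 genes, CPS1 (Os02g0278700), KS1 (Os04g0611800), KO2 (Os06g0570100) and KAO (Os06g0110000). Late steps were represented by 5 genes, GA20ox1 (also GNP1, Os03g0856700), GA20ox2 (also SD1, Os01g0883800), GA20ox3 (Os07g0169700), GA3ox1 (Os05g0178100) and GA3ox2 (also D18, Os01g0177400). Their identifiers place them on chromosomes 1 to 7, with GA20ox2 and GA3ox2 on chromosome 1 and KO2 and KAO on chromosome 6. Start and end positions and sequences were not used here, because no genome or annotation keyed to these identifiers was at hand. Libraries came from young panicles, 0.1 to 0.5 cm long, of the cultivar TP309, 2 from wild type (WT) and 2 from the osbzip47 dsRNAi line 14 (OsbZIP47KD). In that line the maize ubiquitin promoter drives a hairpin RNA against the 3′ UTR of OsbZIP47, a bZIP transcription factor gene of meristems. Both OsbZIP47KD libraries came from 1 transgenic line, so the knockdown and anything peculiar to this line cannot be told apart.

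Gibberellins are diterpenoid hormones that promote stem elongation, flowering and stamen development. In plastids CPS1 and KS1 cyclize a common diterpene precursor into ent-kaurene. The P450 enzymes KO2 and KAO oxidize ent-kaurene to the first gibberellin of the pathway. In the cytosol the GA20ox dioxygenases then remove a carbon in successive oxidations, and the GA3ox dioxygenases add the hydroxyl group that makes the hormone active. GA20ox and GA3ox genes are the steps most often regulated by developmental and hormonal signals. Loss of GA20ox2 in rice gives the semidwarf plants of modern breeding, and loss of GA3ox2 gives the dwarf d18.

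The 4 libraries held 3839165 to 5611969 counts. OsbZIP47 (Os06g0265400), the gene that the hairpin targets, had WT counts of 471 and 261, while the libraries labelled OsbZIP47KD held 1003 and 919. It was thus higher where a knockdown would lower it. Reads of the hairpin can count toward the gene, so its total does not check the labels. The study measured endogenous OsbZIP47 in panicles of this line by qRT-PCR as well, which is not analysed here. Every direction below rests on the labels of the libraries. Levels are CPM, counts scaled to a common library size after TMM normalization, and a level under 3 counts lay below 0.566 to 0.783 CPM, depending on the library. Intervals on counts cover counting error only. The study calls the replicates biological, with no word on which plants supplied each library. In a bulk panicle, fewer cells of a type and less RNA per cell cannot be told apart.

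Most late-step genes had higher levels in the libraries labelled OsbZIP47KD than in WT, and the early-step genes did not. Of the 5 late-step genes, 4 had both OsbZIP47KD libraries above both WT libraries, namely GA20ox1, GA20ox3, GA3ox1 and GA3ox2, against 24.3% of all genes with a count. Of the 4 early-step genes none did, and 2 had both OsbZIP47KD libraries below both WT libraries, namely KS1 and KAO, against 17.6% of all genes with a count. Among the genes with enough counts for a test these shares were 23% above and 22.8% below. The share above depended on level (1 CPM filter, described below). It was 42.5% for genes as low as GA20ox3 and GA3ox1, 37.1% for genes as low as GA3ox2, and 20.3% near the level of GA20ox1. Only 6 of the 9 genes had enough counts to be tested, namely the 4 early-step genes, GA20ox1 and GA3ox2. GA3ox2 reached the filter only through its OsbZIP47KD libraries. With edgeR's quasi-likelihood test, 0 of these 6 were higher and 0 lower at a threshold of 0.05 on the adjusted p, against 0.127% and 0.522% of all genes tested. With an unadjusted p under 0.05 there were 2 higher and 0 lower, against 6.85% and 7.27%. DESeq2 and limma also called 0, and edgeR's exact test called 2, GA20ox1 and GA3ox2. Over all 25289 genes tested the exact test called 342 higher and 433 lower. The quasi-likelihood test called 32 and 132, so the exact test was far more liberal. The study's own rule asks for a 2-fold change and an unadjusted p up to 0.05, and in this fit GA20ox1 and GA3ox2 met it as higher (2 of 6) and 0 of 6 as lower, against 4.62% and 2.5% of all genes tested. With a looser filter, 1 CPM in a pair of libraries, all 9 genes were tested and the same 2 met that rule, with 0 lower, against 4.92% and 2.39%. The study had already picked both genes on these samples, so these counts are not independent evidence.

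**Figure D1:**
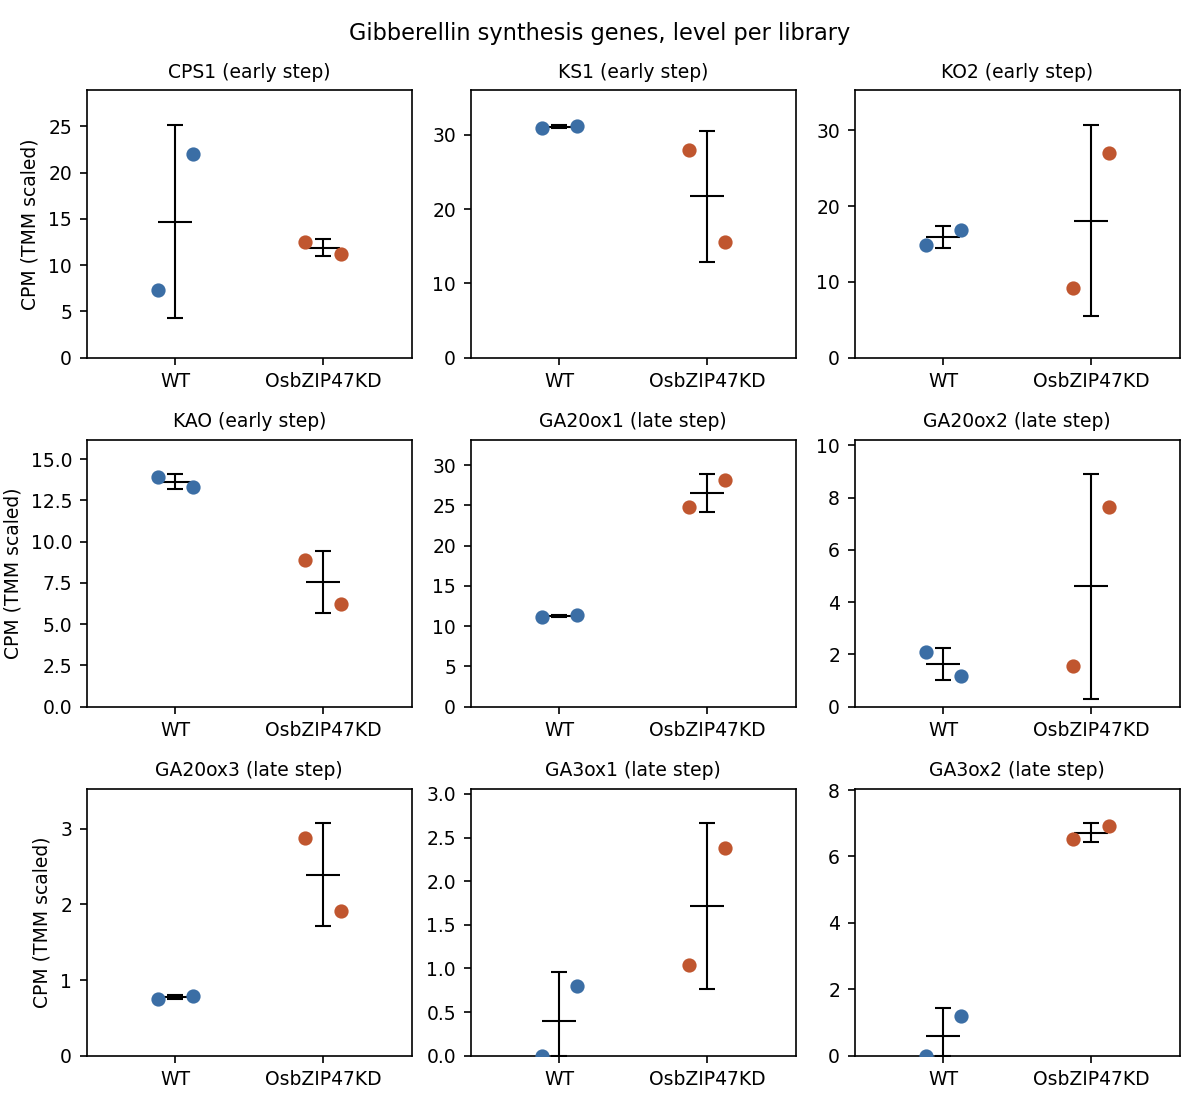
Level of each of the 9 gibberellin synthesis genes in CPM (vertical axis, from 0, a different scale in each panel) in the WT libraries (blue) and the libraries labelled OsbZIP47KD (orange), with the mean and SD of 2 libraries in black (the bars end at 0). GA20ox1, GA20ox3, GA3ox1 and GA3ox2 show both orange points above both blue points, and KS1 and KAO show both orange points below.

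CPS1, ent-copalyl diphosphate synthase, catalyses the first committed step. It stood at 7.35 and 22.1 CPM in WT replicates 1 and 2 and at 12.5 and 11.2 CPM in OsbZIP47KD replicates 1 and 2. The OsbZIP47KD libraries lay between the WT libraries, which differed from each other by 3.0 times. Its log2 fold change was -0.31 (SE, the standard error, 0.49, edgeR quasi-likelihood adjusted p = 0.835), and it was 0.69 without WT replicate 2 and -0.88 without WT replicate 1. No direction could therefore be given for CPS1.

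KS1, ent-kaurene synthase, closes the ring system of ent-kaurene. Its levels were 30.9 and 31.2 CPM in WT and 27.9 and 15.5 CPM in OsbZIP47KD. Both OsbZIP47KD libraries were lower, replicate 2 by far more than replicate 1. The log2 fold change was -0.52 (SE 0.32, edgeR quasi-likelihood adjusted p = 0.504), which did not pass. Without OsbZIP47KD replicate 2 it was -0.15, and without OsbZIP47KD replicate 1 it was -1.0.

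KO2, ent-kaurene oxidase, is a P450 enzyme whose loss gives the rice dwarf d35. It was at 14.9 and 16.9 CPM in WT and at 9.14 and 27.0 CPM in OsbZIP47KD, with 1 OsbZIP47KD library below and 1 above both WT libraries. The OsbZIP47KD libraries differed by 2.95 times, while the WT libraries differed by 1.13 times. The log2 fold change of 0.19 (SE 0.46, edgeR quasi-likelihood adjusted p = 0.896) turned to -0.80 without OsbZIP47KD replicate 2 and rose to 0.77 without OsbZIP47KD replicate 1. KO2 lies in a cluster of related ent-kaurene oxidase genes, and how the counting split reads among them is not given in the sources used here.

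KAO, ent-kaurenoic acid oxidase, completes the early steps. Its levels were 13.9 and 13.3 CPM in WT and 8.88 and 6.20 CPM in OsbZIP47KD, so that all OsbZIP47KD values were lower and the groups did not overlap. The log2 fold change was -0.86 (SE 0.42, unadjusted p = 0.0623, edgeR quasi-likelihood adjusted p = 0.383). It kept its sign with each library left out, lying between -1.13 when OsbZIP47KD replicate 1 was dropped and -0.62 when replicate 2 was. KAO had the largest negative difference of the 6 tested genes, and did not pass.

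GA20ox1, a GA 20-oxidase known as GNP1 for its effect on grain number per panicle, was the late-step gene with the most counts. It had WT counts of 59 and 57 and OsbZIP47KD counts of 95 and 118, although the OsbZIP47KD libraries were smaller. In CPM this was 11.1 and 11.3 in WT against 24.8 and 28.1 in OsbZIP47KD. Replicates differed by 1.02 times in WT and by 1.13 times in OsbZIP47KD, and the groups stood far apart. The log2 fold change was 1.24 (SE 0.32, unadjusted p = 0.00212, edgeR quasi-likelihood adjusted p = 0.110). Under the 14 alternatives it lay between 1.14 and 1.33, with adjusted p-values from 0.0261 with edgeR's exact test to 0.311 without OsbZIP47KD replicate 2. Pooled counts gave a ratio of 2.37 (95% exact binomial interval 1.88 to 2.99).

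GA20ox2, the semidwarf gene SD1, was near the lower limit of the counts. It had WT counts of 11 and 6 and OsbZIP47KD counts of 6 and 32. In CPM its levels were 2.07 and 1.19 in WT and 1.57 and 7.63 in OsbZIP47KD, so only OsbZIP47KD replicate 2 was high. The pooled ratio of 2.88 (95% exact binomial interval 1.59 to 5.44) rested on that library, and without it the log2 ratio was -0.07. No test was made, since the gene lay under the count filter. With the 1 CPM filter its adjusted p was 0.528 by edgeR's quasi-likelihood test.

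GA20ox3, another GA 20-oxidase, had WT counts of 4 and 4 and OsbZIP47KD counts of 11 and 8. Its levels were 0.754 and 0.795 CPM in WT and 2.87 and 1.91 CPM in OsbZIP47KD, with no overlap. The pooled ratio was 3.06 (95% exact binomial interval 1.28 to 8.08). Under the 1 CPM filter the log2 fold change was 1.57 (SE 1.13, edgeR quasi-likelihood adjusted p = 0.583).

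GA3ox1, a GA 3-oxidase known mainly from anthers in rice, had WT counts of 0 and 4 and OsbZIP47KD counts of 4 and 10. WT replicate 2 and OsbZIP47KD replicate 1 held the same number of reads, and at 0.795 and 1.04 CPM they differed through library size. The pooled ratio of 4.51 carried a 95% exact binomial interval of 1.42 to 18.8. Under the 1 CPM filter its adjusted p was 0.591 by edgeR's quasi-likelihood test, so this gene remained at the edge of detection.

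GA3ox2, the D18 gene and the main GA 3-oxidase of rice shoots, showed the largest ratio of the 9. It had WT counts of 0 and 6 and OsbZIP47KD counts of 25 and 29. Its levels were 0 and 1.19 CPM in WT and 6.53 and 6.92 CPM in OsbZIP47KD. Both OsbZIP47KD libraries were nearly equal and well above the WT libraries, of which 1 held no read. The pooled ratio was 11.6 (95% exact binomial interval 5.0 to 33.0). The log2 fold change was 3.46 (SE 1.02, unadjusted p = 0.00579, edgeR quasi-likelihood adjusted p = 0.159). Without WT replicate 1 it was 2.48 (edgeR quasi-likelihood adjusted p = 0.346). Without WT replicate 2 the WT group had no count. The pooled OsbZIP47KD level of GA3ox2 was 11.9 times a floor of 3 counts in WT replicate 1. That value leaves out counting error and the 6 counts of WT replicate 2, so it is no lower bound on the difference. Its adjusted p was under 0.05 with no filter (0.0495) and with edgeR's exact test (0.0119), and was not with DESeq2 (0.0723) and limma (0.136). The adjusted p of 0.0238 without WT replicate 2 set a lone WT library with no count against the OsbZIP47KD libraries, which alone supplied the spread, so it is no check of the difference.

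**Figure D2:**
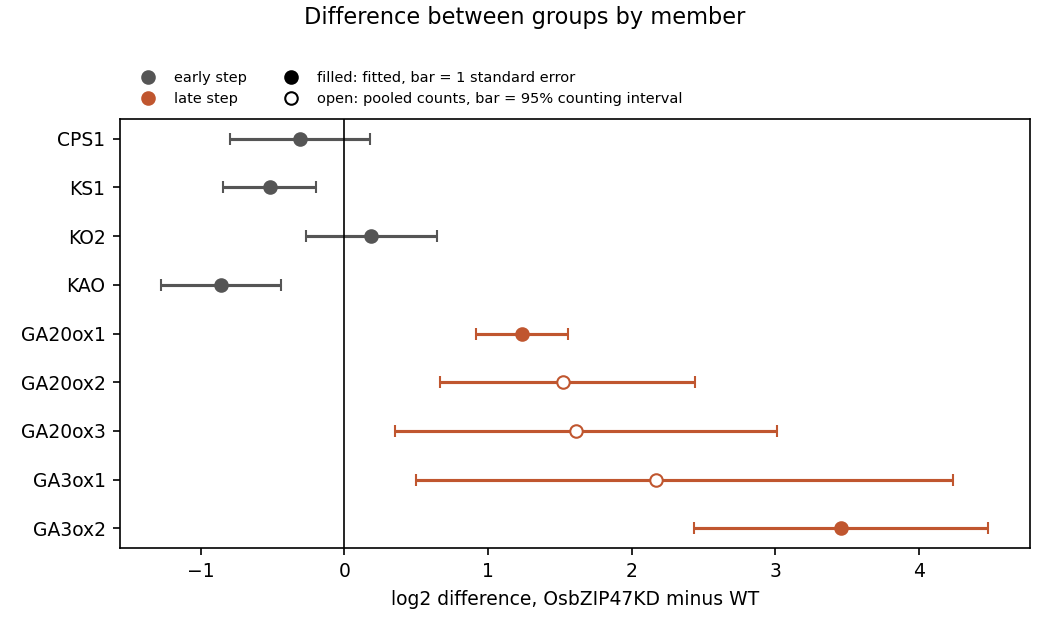
Difference between the libraries labelled OsbZIP47KD and WT for each gene on a log2 scale (horizontal axis), early steps in grey and late steps in orange. Filled points are fitted log2 fold changes with 1 standard error, and open points are ratios of pooled counts with their 95% counting interval for the 3 untested genes. All 5 late-step genes lie above 0, from 1.24 to 3.46, and 3 of the 4 early-step genes lie below it. Of these, GA20ox2 was at -0.07 without OsbZIP47KD replicate 2, and CPS1 was at 0.69 without WT replicate 2.

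Some members have a neighbour in the order of identifiers with a profile alike in all or some libraries. Such gene models may overlap and share reads, but their positions were not at hand. Os01g0177500, the next identifier after GA3ox2, had WT counts of 0 and 6 and OsbZIP47KD counts of 21 and 20, close to the 0, 6, 25 and 29 of GA3ox2. Its log2 fold change was 3.07 (edgeR quasi-likelihood adjusted p = 0.231). Os01g0883850, after GA20ox2, had WT counts of 2 and 4 and OsbZIP47KD counts of 4 and 25, so that it too was high in OsbZIP47KD replicate 2 alone. Os02g0279150, after CPS1, had WT counts of 36 and 93 and OsbZIP47KD counts of 24 and 33, and like CPS1 it was higher in WT replicate 2 than in WT replicate 1. Os05g0178000, before GA3ox1, had WT counts of 17 and 31 and OsbZIP47KD counts of 24 and 77. Like GA3ox1 it was highest in OsbZIP47KD replicate 2. These neighbours were picked from those of all members after their values were seen. The identifiers on either side of GA20ox1 had log2 fold changes of -0.27 and 0.00, unlike its 1.24. Whether reads were counted by strand is not given in the sources used here, so overlapping and antisense genes could not be told apart.

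Summed by step, the early-step genes were at 67.1 and 83.5 CPM in WT and 58.5 and 59.9 CPM in OsbZIP47KD. Transcripts of the 3 GA20ox genes together were at 13.9 and 13.3 CPM in WT and at 29.2 and 37.7 CPM in OsbZIP47KD. The pair of GA3ox genes together had WT counts of 0 and 10 and OsbZIP47KD counts of 29 and 39. Both late-step sums were thus higher in each OsbZIP47KD library than in each WT library, and the early sum was lower. GA20ox1 and GA3ox2 held most of the late-step counts in OsbZIP47KD. Within the early sum, the groups overlapped for CPS1 and KO2. The late-step share of all counts of the 9 genes was 17.2% (95% exact binomial interval 13.8 to 21.1) and 15.5% (12.4 to 19.0) in WT replicates 1 and 2. It was 38.6% (33.6 to 43.8) and 44.0% (39.3 to 48.7) in OsbZIP47KD replicates 1 and 2. The group means were 16.4% ± 1.21 (SD, n = 2) and 41.3% ± 3.78 (SD, n = 2), a difference of 25 percentage points. Counts were not divided by gene length, for which no value was at hand, so the share compares libraries and not the abundance of one step with another.

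The shift in share kept its direction with GA20ox1 and GA3ox2 left out, but the late-step genes then remaining were low. All genes at such levels had median log2 fold changes of 0.89 and 0.74 in the 2 bands concerned (1 CPM filter, below). With GA20ox1 left out of the sums the late-step share was 4.04% and 4.55% in WT and 17.0% and 23.9% in OsbZIP47KD. With both GA20ox1 and GA3ox2 left out it was 4.04% and 3.23% in WT and 8.57% and 16.6% in OsbZIP47KD. In that case the counting intervals of OsbZIP47KD replicate 1 (5.38 to 12.8) and of WT replicate 1 (2.28 to 6.58) overlapped. Of the 50 late-step counts then left in OsbZIP47KD replicate 2, 32 were of GA20ox2, which was high in that library alone. GA20ox3 and GA3ox1 held only 8 and 10 counts there, and 11 and 4 in OsbZIP47KD replicate 1. These sums were set after the data were seen, and no test was made on a score over genes chosen with results known.

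**Figure D3:**
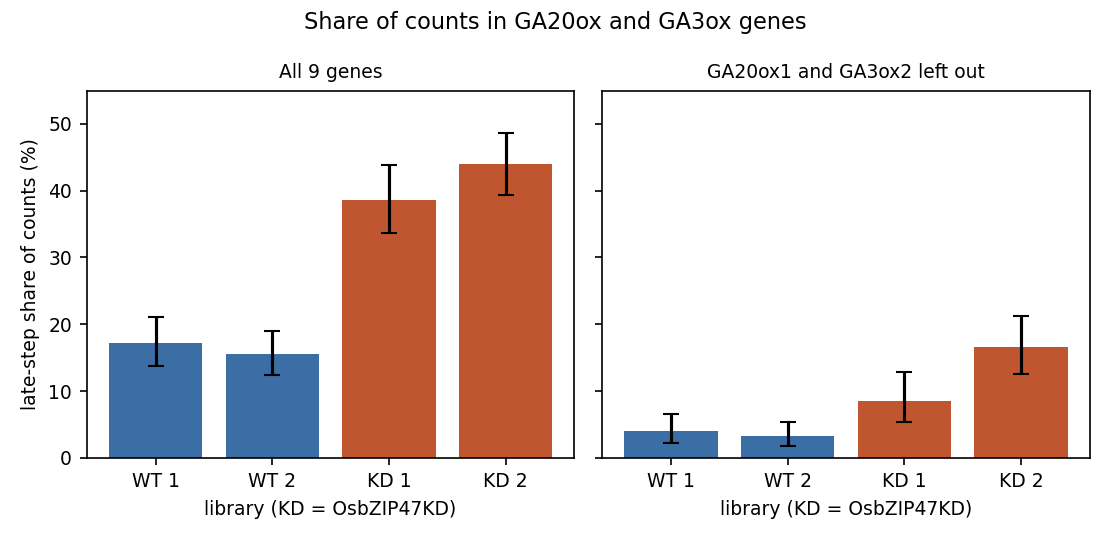
Share of the counts of the gibberellin synthesis genes that fell in GA20ox and GA3ox genes (vertical axis, percent, from 0), for each library, with 95% exact binomial intervals. On the left, with all 9 genes, the WT libraries are at 17.2% and 15.5% and the OsbZIP47KD libraries at 38.6% and 44.0%, and on the right, without GA20ox1 and GA3ox2, the shares are lower but keep the same order of groups.

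The level of a gene moved with its fold change across the whole table, and 4 of the 5 late-step genes were low. Among genes that passed the 1 CPM filter, the median log2 fold change was 0.89 for 2779 genes with a mean log2 CPM below 1, the band of GA20ox3 and GA3ox1. It was 0.74 for 4236 genes between 1 and 2, the band of GA20ox2 and GA3ox2, and -0.02 for 5258 genes between 4 and 5, the band of GA20ox1, KS1 and KO2. In the lowest band 42.5% of genes had both OsbZIP47KD libraries above both WT libraries. In the band of GA20ox2 and GA3ox2 37.1% did, and in the band of GA20ox1 20.3% did. GA20ox3, GA3ox1 and GA3ox2 reached the 1 CPM filter only through their OsbZIP47KD libraries, so their fitted values and places in a band are descriptions. In the same fit GA20ox3 had a log2 fold change of 1.57 and GA3ox1 one of 2.04, against an upper quartile of 1.97 for all genes of their band. GA3ox2, at 3.44, lay above the upper quartile of its band, which was 1.52, and GA20ox1, at 1.21, lay above one of 0.25. GA20ox2, at 1.44, lay under the upper quartile of the same band as GA3ox2. With the trend removed by a loess, an alternative chosen after seeing the data, GA20ox1 had a log2 fold change of 1.21 (adjusted p = 0.132) and GA3ox2 one of 3.04 (adjusted p = 0.253) by edgeR's quasi-likelihood test. For KAO and CPS1, between 3 and 4, the median of all genes was 0.07.

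**Figure D4:**
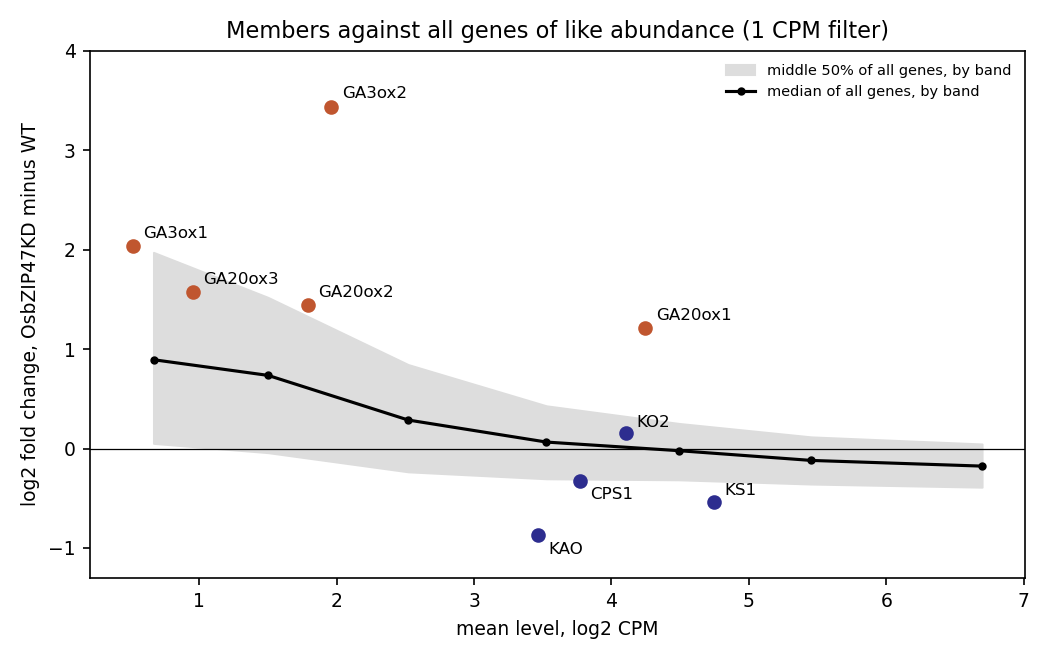
Log2 fold change of the 9 genes (vertical axis, OsbZIP47KD minus WT) against their mean level in log2 CPM (horizontal axis), late steps in orange and early steps in blue, from the fit with the 1 CPM filter. The black line joins the medians of all genes in 7 bands of level and the grey area holds their middle 50%. The line falls from 0.89 at the lowest levels to -0.18 at the highest. GA3ox2 and GA20ox1 stand well above the grey area, KAO and KS1 stand below it, and CPS1 lies just under its lower edge.

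Beyond the 9 enzymes, the sources used here annotate 6 of the 11 identifiers of a list of gibberellin inactivation. The study had called each of these genes on these samples, so neither their direction nor the number called is independent evidence. All 6 were tested, and 0 passed the threshold of 0.05 on edgeR's adjusted p, against 0.127% of all tested genes higher and 0.522% lower. Unadjusted p-values under 0.05 were found for 3 that were higher and 2 that were lower, a number largely fixed in advance by that choice of genes. Over all tested genes the shares were 6.85% and 7.27%. GA2ox9 (Os02g0630300), a GA 2-oxidase that inactivates gibberellins, was at 83.9 and 52.5 CPM in WT and 26.6 and 13.1 CPM in OsbZIP47KD, with a log2 fold change of -1.78 (adjusted p = 0.0657). GA2ox2 (Os01g0332200), another GA 2-oxidase, had WT counts of 2 and 0 and OsbZIP47KD counts of 16 and 16, with a log2 fold change of 4.19 (adjusted p = 0.137). GA2ox2, which was low, and GA2ox9, which was abundant, thus lay on opposite sides. Across the whole table the median log2 fold change fell from 0.89 at the lowest levels to -0.18 at the highest. The part of that trend in the values of these genes was not tested.

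Of a list of 8 identifiers of gibberellin signalling, 2 are annotated in the sources used here, again genes called by the study on these samples. CIGR1 (Os07g0545800), a GRAS family gene induced by chitin and gibberellin, was at 131 and 104 CPM in WT and 38.4 and 34.4 CPM in OsbZIP47KD. It fell, with a log2 fold change of -1.69 (SE 0.22, edgeR quasi-likelihood adjusted p = 0.00518). Its relative CIGR2 (Os07g0583600) was at 153 and 64.6 CPM in WT and 19.3 and 33.9 CPM in OsbZIP47KD, with a log2 fold change of -2.03 (edgeR adjusted p = 0.172). Of 4 regulators of gibberellin synthesis, only AP2-39 (Os04g0610400) is annotated, an AP2 factor that raises abscisic acid and lowers gibberellin. It had WT counts of 350 and 149 and OsbZIP47KD counts of 82 and 111, with a log2 fold change of -1.0 (edgeR adjusted p = 0.257). None of a list of 4 further paralogs of synthesis enzymes is annotated, and no value is given for them.

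Markers of tissues that the panicle samples could hold were checked as far as they are annotated. This was for 1 of 7 panicle, 2 of 5 leaf and 1 of 6 tapetum genes, all called by the study on these samples. APO1 (Os06g0665400), an F-box gene of the inflorescence meristem, was present in every library, at 8.29 and 12.9 CPM in WT and 24.0 and 35.3 CPM in OsbZIP47KD. The leaf genes CAB1R (Os09g0346500) and CAB2R (Os01g0600900), which encode chlorophyll binding proteins, summed to 136 and 191 CPM in WT and 48.3 and 67.3 CPM in OsbZIP47KD. CAB1R fell, with a log2 fold change of -2.40 (edgeR quasi-likelihood adjusted p = 0.00357). TDR (Os02g0120500), a tapetum regulator of anthers, had WT counts of 0 and 4 and OsbZIP47KD counts of 4 and 37. It was high in OsbZIP47KD replicate 2 alone, the library in which KO2 and GA20ox2 were also high. The part of these tissues in the levels of the 9 genes was not tested.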

How the data were processed

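RNA of 4 panicle libraries was depleted of ribosomal RNA, sequenced as pairs and aligned by the authors to the RAP-DB rice genome with STAR v2.5.3a, and raw read counts per gene were deposited. The counting program and strand setting are not given in the sources used here. The deposited normalized values, a score, are counts multiplied by 1 factor per library and rounded, and are blank for 8330 genes. The R release was 4.3.3, with edgeR v4.0.16 for the counts. Genes passing filterByExpr (minimum count 10, minimum total 15) were scaled by TMM, fitted by the robust quasi-likelihood test with group as the only term and adjusted by Benjamini-Hochberg over 25289 genes. CPM use the counts of the tested genes. Members under the filter were given as ratios of pooled counts with exact 95% intervals. Alternatives were limma v3.58.1 on the normalized values plus 1, DESeq2 v1.42.0, the exact test of edgeR, a replicate block, each library left out, scaling by library size, RLE or upper quartile, and the filter set to 1 CPM in 2 libraries or dropped. Removal of the abundance trend was added later. The members and lists were chosen with earlier results of these data known. Named genes were all 9 members, OsbZIP47, and from each list those called or, where under 2 were called, up to 2 with the smallest p. Lists were used only where the gene tables of the study annotate the identifier. A search for the TGACG motif was not made for lack of promoter sequences.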

Additional observations from a re-analysis of the deposited data

How the results depend on the processing

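Of 114 values of the 9 genes under 13 alternatives and the added removal of the abundance trend, 106 kept their direction and side of the threshold or, where untested, stayed within their counting interval. With 1 library left out, CPS1 ran from -0.88 to 0.69 (turned without WT replicate 2) and KO2 from -0.80 (turned without OsbZIP47KD replicate 2) to 0.77, and KO2 was -0.044 with limma. GA20ox2 moved to -0.07 without OsbZIP47KD replicate 2. Genes higher at an adjusted p under 0.05 numbered 1 with no filter (GA3ox2), 2 with edgeR's exact test (GA20ox1 and GA3ox2) and 0 to 1 with 1 library left out, against 0 in the report. The 1 was GA3ox2 without WT replicate 2, where the lone WT library had no count and was assumed to vary like the OsbZIP47KD libraries. Genes lower at the criterion of the study numbered 0 to 1 with 1 library left out, the 1 being KAO without OsbZIP47KD replicate 1. The difference in late-step share, 25 percentage points, was 22.3 to 27.6 with 1 library left out, 16.2 without GA20ox1, 21.3 without GA3ox2 and 8.96 without GA20ox1 and GA3ox2. The cause of these changes was not tested. With the replicate number as a block, 0 of the 6 tested genes passed, with adjusted p-values of 0.0725 for GA20ox1 and 0.0762 for GA3ox2, while over all genes the calls rose from 32 to 186 higher and from 132 to 410 lower. Deviations of same-numbered libraries correlated across genes with r = 0.04, and nothing in the labels pairs them. Over all genes, calls numbered 236 higher and 551 lower with no filter, 139 and 298 with DESeq2, and 342 and 433 with the exact test. Upper quartile scaling shifted the median log2 fold change of all genes to 0.11 from 0.02. Depth limits GA20ox2, GA20ox3, GA3ox1 and WT GA3ox2, which rest on 0 to 32 counts a library.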

Other observations

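Rice also uses cyclases related to CPS1 and KS1 to make diterpenoid phytoalexins, which are defence compounds. Of a list of 8 such identifiers, 3 are annotated in the sources used here, all of them called by the study on these samples, and they did not move together. OsDTC1 (Os02g0570400) was at 5.47 and 4.17 CPM in WT and 11.5 and 19.1 CPM in OsbZIP47KD, with a log2 fold change of 1.66 (edgeR quasi-likelihood adjusted p = 0.133). CPS4 (Os04g0178300) had no count in WT and 4 and 10 counts in OsbZIP47KD. KSL4 (Os04g0179700), beside CPS4 in a cluster of phytoalexin genes, had WT counts of 12 and 11 and OsbZIP47KD counts of 1 and 2, a pooled ratio of 0.168 (95% exact binomial interval 0.0323 to 0.556). The latter 2 genes lay under the count filter and were not tested.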
